A study of Homo sapiens with 4 samples.

Results

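FGF2 and 6 genes of the ERK feedback loop (DUSP6, SPRY1, SPRY2, SPRY4, ETV4 and ETV5) were followed in single-cell RNA from KhES1 cells, an established line of human embryonic stem cells (hESC), and from blastoids made of them. The 7 genes were chosen by symbol, with earlier results of these data known. All 7 had a row in each of the 4 deposited tables, and the tables together list 23364 genes. Blastoids are cell aggregates grown as models of the human blastocyst. Samples hESC 1 and hESC 2 were KhES1 cells kept in mTeSR-1 medium, with 10 µM Y27632 (an inhibitor of the kinase ROCK) on the first day after passage. Samples blastoid 3 and blastoid 4 were KhES1 cells aggregated for 24 h in mTeSR-1 with 10 µM Y27632, embedded in a PNIPAAm-PEG hydrogel in DMEM with 10% fetal bovine serum, and given iBlastoid medium after 3 days. The names of the tables carry day 0 for the stem cells and day 9 for the blastoids, while the titles of all 4 samples carry day 0. The groups were therefore taken from the tissue label. All 4 samples come from 1 cell line, and the labels do not say whether the 2 samples of a group were separate cultures, so p-values measure only the spread between these samples. Medium, serum, hydrogel and cell type change together between the groups, and their parts cannot be told apart.

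FGF2 is a secreted growth factor that binds FGF receptors and, through RAS, RAF and MEK, leads to phosphorylation of the kinase ERK. Active ERK turns on genes that act back on the pathway: DUSP6 encodes a phosphatase that removes phosphate from ERK in the cytoplasm, the Sprouty proteins SPRY1, SPRY2 and SPRY4 dampen signalling between the receptor and RAF, and ETV4 and ETV5 are ETS-family transcription factors of the PEA3 group. Human embryonic stem cells in primed culture depend on FGF signalling and make FGF2 themselves, and mTeSR-1 is a medium that supplies it.

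In the RefSeq annotation of GRCh38.p14, FGF2 lies on chr4:122826682-122898236 (plus strand), DUSP6 on chr12:89347235-89352501 (minus strand), SPRY1 on chr4:123396795-123403760 (plus strand), SPRY2 on chr13:80335976-80341126 (minus strand), SPRY4 on chr5:142310430-142325021 (minus strand), ETV4 on chr17:43527846-43546340 and ETV5 on chr3:186046314-186109089. Upstream windows of DUSP6, SPRY1 and SPRY2 are shown as examples of the letters before the start of a feedback inhibitor gene, and the counts of the other windows are given after them. Each line gives the 250 bases before the gene's start, 5′ to 3′ on the gene's strand, with GGAA on either strand in capitals, the core of the sites that ETS factors such as ETV4 and ETV5 bind.
DUSP6 (chr12:89352502-89352751, minus strand): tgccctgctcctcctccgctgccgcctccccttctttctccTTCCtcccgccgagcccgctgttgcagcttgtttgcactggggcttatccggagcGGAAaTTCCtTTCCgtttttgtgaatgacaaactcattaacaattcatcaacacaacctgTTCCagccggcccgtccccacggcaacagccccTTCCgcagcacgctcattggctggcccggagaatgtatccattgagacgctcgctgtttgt
SPRY1 (chr4:123396545-123396794, plus strand): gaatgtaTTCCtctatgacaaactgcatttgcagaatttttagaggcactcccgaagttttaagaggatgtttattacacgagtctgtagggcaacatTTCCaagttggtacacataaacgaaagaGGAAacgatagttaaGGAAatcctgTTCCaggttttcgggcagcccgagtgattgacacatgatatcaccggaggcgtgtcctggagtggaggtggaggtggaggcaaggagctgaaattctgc
SPRY2 (chr13:80341127-80341376, minus strand): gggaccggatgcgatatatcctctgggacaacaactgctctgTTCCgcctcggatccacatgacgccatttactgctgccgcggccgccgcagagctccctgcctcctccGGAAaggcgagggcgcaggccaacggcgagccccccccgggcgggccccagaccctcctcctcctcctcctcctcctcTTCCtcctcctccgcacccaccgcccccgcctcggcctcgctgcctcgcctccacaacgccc
The DUSP6 window held 6 GGAA cores, the SPRY1 window 5 and the SPRY2 window 3. A second window of SPRY1 and 2 further windows of SPRY2 held 4 each, the SPRY4 window 2 and the FGF2 window 0. These other windows lie partly (FGF2) or wholly inside the gene spans given above, before starts within the gene. Of 35116 RefSeq promoter windows, 9.14% had at least as many cores as DUSP6, 18.6% as the first window of SPRY1, 55.1% as the first window of SPRY2 and 76.5% as SPRY4, and the median window had 3. The windows differ in where they lie relative to the gene spans, and whether the cores bear on the levels was not tested. Promoter windows were found for 5 of the 7 genes. In windows of 300 bases (250 before the start and 50 after), on both strands, an ETS site (CCGGAAG, which holds the core) was present once, in a second window of SPRY1, 67 bases before that start, and in 10.3% of all windows. The PEA3 site (AGGAAGT, which also holds the core; 8.24% of windows), the AP-1 site (TGANTCA; 7.71%) and the cyclic AMP response element (TGACGTCA; 1.85%) had no match in the windows of the 5 genes. A match is a description of the letters and not a site of binding.

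The tables held 19074 cell barcodes, of which 9607 had at least 500 genes and were not called doublets (2238 in hESC 1, 3175 in hESC 2, 2278 in blastoid 3 and 1916 in blastoid 4). Kept cells held 13255214 to 17679447 UMIs per sample (molecular tags that count each captured molecule once), and medians per cell ran from 4996 to 8798. Scrublet called 73 of 9680 tested barcodes doublets. The hESC samples shared 1317 barcodes and the blastoid samples 1035, with 23 and 0 kept in both samples of a group. Between groups 6 to 14 barcodes were shared. The summed level of 14 pluripotency markers was 6573 and 6821 UMIs per 1000000 UMIs (CPM) in the hESC samples and 1108 and 1023 CPM in the blastoid samples. HAND1, a gene of amnion and mesoderm, had no UMI in either hESC sample.

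Over all kept cells, 6 of the 7 genes were lower in the blastoid samples than in the hESC samples, and SPRY2 was not called. Counts were summed per sample and tested with edgeR's quasi-likelihood test (n = 2 per group), and genes with a Benjamini-Hochberg adjusted p under 0.05 were called. Of 16332 genes tested, 22.8% were called lower, 27.1% higher and 49.9% in either direction, so a call by itself was common. Levels in the next paragraphs are TMM-scaled CPM, and differences are log2 (blastoid / hESC) with the standard error.

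The ligand gene FGF2 stood at 124 CPM in hESC 1 and 108 in hESC 2, against 38.5 in blastoid 3 and 31.2 in blastoid 4. Both blastoid samples lay below both hESC samples, and the fall was 3.32-fold (log2 -1.73 ± 0.16, edgeR adjusted p 0.000161). FGF2 shares 5660 bases with NUDT6, which is transcribed from the opposite strand. Whether counting used the strand is not given in the sources used here, so UMIs of the 2 genes may not be fully separated. NUDT6 had 12.4, 12.0, 14.8 and 14.6 CPM in the same order of samples and was not called (log2 0.27 ± 0.15, edgeR adjusted p 0.175).

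Among the inhibitors, DUSP6 had 110 and 162 CPM in the hESC samples and 51.9 and 30.5 CPM in the blastoid samples. The groups did not overlap, although the samples of each group differed more for DUSP6 than for FGF2, and the fall was 3.31-fold (log2 -1.73 ± 0.28, edgeR adjusted p 0.00208). SPRY4 had 37.4 and 48.0 CPM against 11.3 and 5.57 CPM. That fall was the largest of the 4 inhibitors, 5.09-fold (log2 -2.35 ± 0.31, edgeR adjusted p 0.000825). SPRY1 was close in the hESC samples, 55.0 and 57.8 CPM, and had 38.1 and 33.5 CPM in the blastoid samples. Its fall of 1.58-fold was the smallest of the 6 calls (log2 -0.66 ± 0.13, edgeR adjusted p 0.00582), and the call was lost without hESC 1 (adjusted p 0.0512) or without hESC 2 (adjusted p 0.0728). SPRY2 had 25.5, 33.3, 23.9 and 27.5 CPM, so its groups overlapped (log2 -0.19 ± 0.17, edgeR adjusted p 0.378).

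Both ETS factor genes fell. ETV4 had 50.4 and 58.4 CPM in the hESC samples and 9.95 and 8.99 CPM in the blastoid samples, and the fall of 5.75-fold was the largest among the 7 genes (log2 -2.52 ± 0.16, edgeR adjusted p 2.99e-05). ETV5 had 45.0 and 43.9 CPM against 10.9 and 8.15 CPM, a 4.68-fold fall (log2 -2.23 ± 0.17, edgeR adjusted p 8.36e-05). The samples of a group lay close together for both genes compared with the gap between groups. The median log2 difference of the 7 genes was -1.73, beside 0.052 over all genes tested. Since the 7 were chosen with earlier results of these data known, this contrast is a description and not a test. Without the barcodes that 2 samples shared, which removed 1311 kept cells of hESC 2 and 1015 of blastoid 4, FGF2 (log2 -1.86), DUSP6 (-1.58), SPRY1 (-0.69), SPRY4 (-2.34), ETV4 (-2.83) and ETV5 (-2.40) were still called lower.

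**Figure D1:**
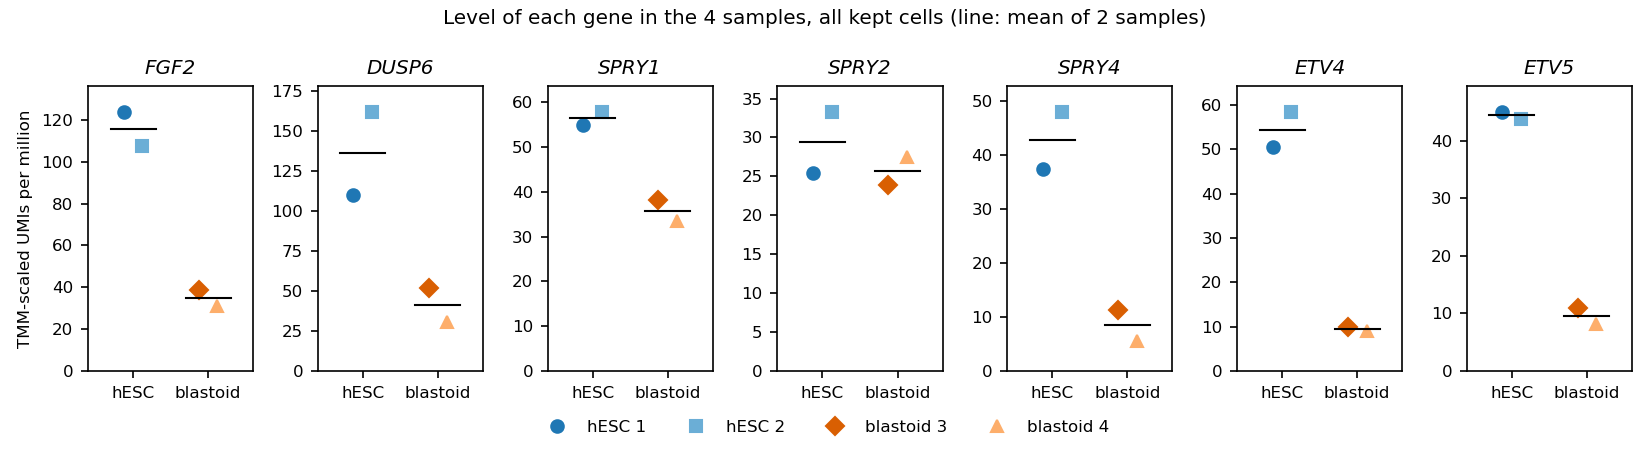
Level of each of the 7 genes in each sample (y axis: TMM-scaled CPM, linear from 0; x axis: group; points: samples; lines: means of the 2 samples). The blastoid points lie below the hESC points for 6 genes, and for SPRY2 the groups overlap between 23.9 and 33.3 CPM. Groups without overlap were common: 71 of 79 other pathway genes tested had them, in either direction. The share over all genes was not counted for these levels. By another measure, the share of thinned cells with a UMI, 23.9% of all genes were lower in both blastoid samples.

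The share of cells with at least 1 UMI of a gene was compared after each cell was thinned to 2000 UMIs, which left 1803, 2202, 2171 and 1874 cells. FGF2 was seen in 20.8% and 19.1% of hESC cells and in 7.97% and 5.18% of blastoid cells. DUSP6 was seen in 15.5% and 23.7% against 10.2% and 5.02%, and ETV4 in 7.77% and 11.6% against 1.66% and 1.39%. The share was lower in both blastoid samples for the same 6 genes that were called, while of all genes with a UMI in thinned cells 23.9% were lower and 36.9% higher in both. With 2 samples per group the exact two-sided permutation test cannot go below 0.33, which is the p of each of these 6 genes. SPRY2 overlapped, with 4.88% and 6.72% against 4.79% and 4.91% (exact permutation p 0.67). Without thinning, the mean share for SPRY2 was 13.5% in hESC and 16.6% in the deeper blastoid samples, and the other 6 genes stayed lower in both blastoid samples.

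Few cells showed several of the 7 genes at this depth. A thinned cell held on average 0.739 and 0.886 of the 7 genes in the hESC samples and 0.369 and 0.243 in the blastoid samples. None of the 7 was seen in 45.0% and 39.0% of hESC cells and in 69.4% and 78.8% of blastoid cells. Cells with 3 or more made up 3.11% and 4.59% of the hESC samples and 0.875% and 0.320% of the blastoid samples.

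Blastoid cells were then described by cluster. Cells were clustered without the 7 genes and without 89 other pathway genes, and clusters were named from a list of marker genes. Mesoderm/mesenchyme-like cells made up 74.8% and 59.8% of blastoid 3 and blastoid 4, and trophectoderm/amnion-like cells 18.1% and 32.9%. A cluster of 135 and 120 blastoid cells, led by HPGD, TMPRSS11E, PLA2G2A and NODAL, expressed more pluripotency markers than markers of another class. It stayed unnamed because the mesoderm genes MIXL1 and MESP1 were among its 10 leading genes, and it is called the NODAL-led cluster. Levels by cluster are CPM without TMM scaling, given for blastoid 3 and then blastoid 4, and they are a description without a test.

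FGF2 was highest in the NODAL-led cluster and in 1 mesoderm-like cluster, and low in trophectoderm/amnion-like cells. It had 73.8 and 99.5 CPM in the NODAL-led cluster, against 117 and 104 CPM over all cells of the hESC samples. Mesoderm/mesenchyme-like cells as a whole had 43.6 and 30.5 CPM, and trophectoderm/amnion-like cells 19.4 and 15.7 CPM. The order NODAL-led, mesoderm-like, trophectoderm/amnion-like held in both samples.

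DUSP6 followed another order. It had 67.6 and 43.2 CPM in mesoderm/mesenchyme-like cells, above 27.9 and 7.75 CPM in the NODAL-led cluster and 22.3 and 8.92 CPM in trophectoderm/amnion-like cells. The 95% Poisson intervals (counting error only) of the NODAL-led cluster and of trophectoderm/amnion-like cells overlapped in both samples, so these neighbours in the order were not separated. Over all cells the hESC samples had 104 and 157 CPM.

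Among the Sprouty genes, SPRY4 was low in both large classes, with 10.8 and 5.74 CPM in mesoderm/mesenchyme-like cells and 5.40 and 1.49 CPM in trophectoderm/amnion-like cells. The NODAL-led cluster had 41.8 and 19.4 CPM of SPRY4. SPRY1 was nearly level between the 2 large classes, with 38.1 and 32.7 CPM in mesoderm/mesenchyme-like cells and 39.6 and 33.4 CPM in trophectoderm/amnion-like cells. SPRY2 had 22.2 and 22.6 CPM in mesoderm/mesenchyme-like cells as a whole, with a wide spread between their finer clusters given below. It had 36.7 and 33.2 CPM in trophectoderm/amnion-like cells, where it stood at or above its level in the hESC samples (24.0 and 32.2 CPM).

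ETV4 was high in the NODAL-led cluster, with 50.1 and 64.0 CPM, beside 47.5 and 56.6 CPM in the hESC samples. It was at 6.88 and 2.42 CPM in mesoderm/mesenchyme-like cells and at 8.27 and 4.79 CPM in trophectoderm/amnion-like cells. ETV5 had 22.2 and 26.5 CPM in the NODAL-led cluster, 12.8 and 8.96 CPM in mesoderm/mesenchyme-like cells and 3.60 and 1.98 CPM in trophectoderm/amnion-like cells. In thinned cells ETV4 was seen in 1.14% and 0.444% of mesoderm/mesenchyme-like cells (median depth before thinning 6183 and 8415 UMIs). Before thinning, 37 of 76 and 6 of 24 ETV4 UMIs of this class lay in its MSGN1-led cluster, described below. POU5F1, a pluripotency gene, was seen in 2.10% and 1.60% of the same thinned cells. POU5F1 was seen in 62.1% and 73.3% of the NODAL-led cells and ETV4 in 8.33% and 10.0%, so the POU5F1 share does not measure the background of ETV4, and how much of the low ETV4 share was free RNA was not tested.

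A small mesoderm-like cluster of 167 and 27 cells, led by HOX genes, MSGN1 and CDX4 (genes of the presomitic and caudal mesoderm), had high levels of most of the 7 genes. DUSP6 reached 188 and 145 CPM there, SPRY4 49.7 and 29.8, SPRY1 76.2 and 55.9, ETV5 39.8 and 48.4, and ETV4 30.7 and 22.4 CPM. FGF2 had 86.2 and 48.4 CPM. In the other 3 mesoderm-like clusters, together most of the blastoid cells, DUSP6 ranged from 30.6 to 71.0 CPM, SPRY4 from 3.22 to 7.17 CPM and ETV4 from 0 to 5.67 CPM. The MSGN1-led cluster also held FGF4 at 29.8 and 33.5 CPM and FGF3 at 13.3 and 14.9 CPM, both FGF ligand genes. FGF4 was at or under 0.606 CPM in the other 3 mesoderm-like clusters. Of the 194 cells, 167 came from blastoid 3, so the cluster weighs more in that sample's sums. High DUSP6 in blastoid 3 was not confined to it in a finer clustering (resolution 1.0). There DUSP6 was at 126 and 57.8 CPM in a TECRL-led mesoderm-like cluster and at 127 and 55.6 CPM in an NTRK2-led one. SPRY1 was at 49.2 and 21.2 CPM in the former and 77.4 and 73.4 CPM in the latter. In both, SPRY4 was at or under 14.1 CPM and ETV4 at or under 7.04 CPM. Apart from the MSGN1-led cluster, the other mesoderm-like clusters had DUSP6 from 14.3 to 53.6 CPM. SPRY2 was at 53.7 and 44.3 CPM in the TECRL-led cluster of this clustering, above its level in trophectoderm/amnion-like cells as a whole. In a CXCL14-led mesoderm-like cluster SPRY2 was at 8.42 and 10.4 CPM.

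**Figure D2:**
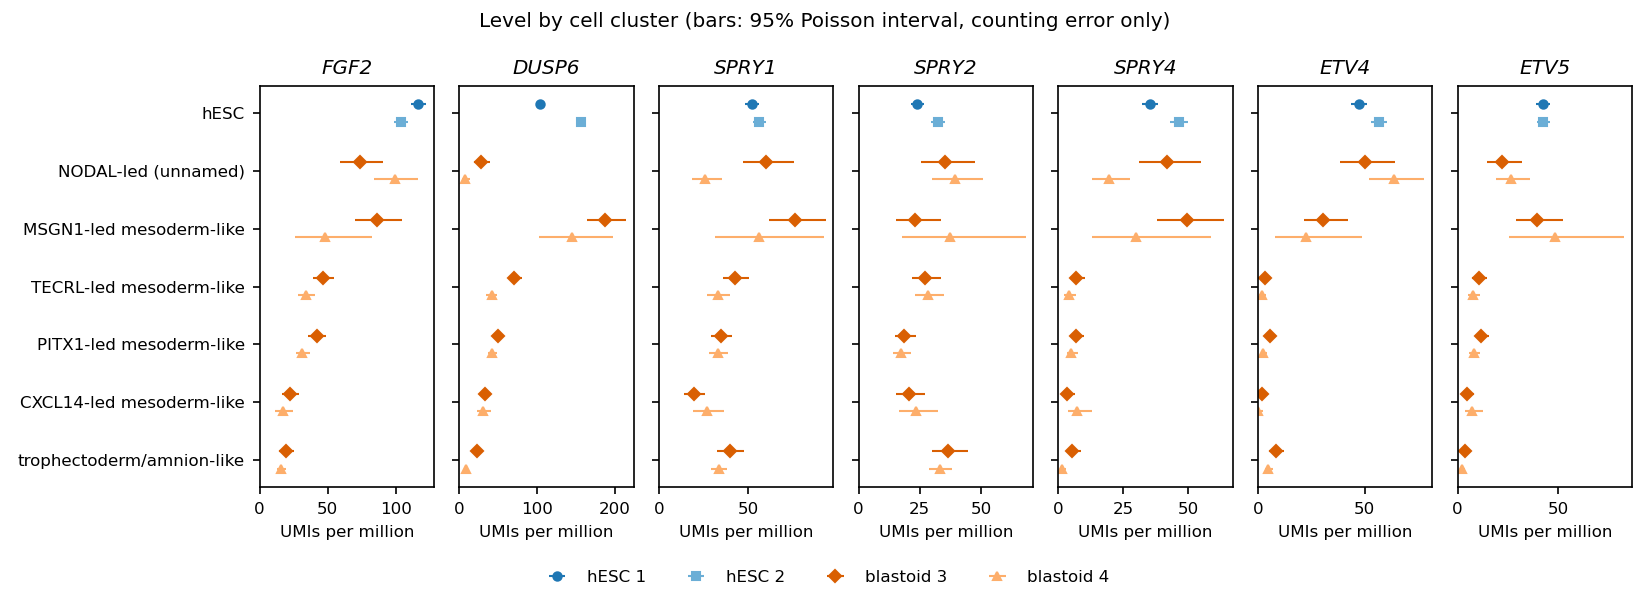
Level of the 7 genes in all hESC cells and in 6 clusters of blastoid cells (x axis: CPM without TMM scaling, linear from 0; points: samples; bars: 95% Poisson intervals, counting error only). DUSP6 is at 188 and 145 CPM in the MSGN1-led cluster and at 27.9 and 7.75 CPM in the NODAL-led cluster, while ETV4 is highest in the NODAL-led cluster among blastoid cells.

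The blastoid cells with pluripotency markers were compared with the hESC cells by sample, since a difference over all cells holds both the mix of cells and the level in each kind. All hESC cells were set against 157 cells of blastoid 3 and 128 of blastoid 4, which lay in the NODAL-led cluster or in 2 shallow clusters with pluripotency markers. In these blastoid cells the 14 pluripotency markers summed to 3387 and 3657 CPM, and 17 mesoderm markers to 740 and 335 CPM, against 21.7 and 23.3 CPM in hESC, where 10 and 9 of the 17 were at 0. The 16 trophectoderm/amnion markers summed to 2629 and 2416 CPM in these blastoid cells and to 1001 and 976 CPM in hESC, where 8 of the 16, GATA3, TFAP2A and HAND1 among them, were at 0. The part of these other markers in the result was not tested.

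DUSP6 and ETV5 were called lower in this comparison, and the other 5 genes were not called. Of 14145 genes tested, 11.4% were called lower, 13.9% higher and 25.3% in either direction. DUSP6 had 110 and 160 TMM-scaled CPM in hESC and 25.4 and 7.72 in the blastoid cells, from 34 and 12 UMIs. The fall was 8.42-fold (log2 -3.07 ± 0.34, edgeR adjusted p 6.96e-05), beside 3.31-fold over all cells. Both comparisons use the same hESC samples. The size of the fall rested on the blastoid sample: it was -4.12 on the log2 scale without blastoid 3 and -2.44 without blastoid 4, and was called in both. ETV5 had 44.9 and 43.3 CPM against 20.2 and 26.4 CPM, a fall of 1.88-fold (log2 -0.91 ± 0.19, edgeR adjusted p 0.0051). Other genes of the pathway did not all fall with them. Of 10 other ERK target genes tested in this comparison, 5 were called higher and 1 lower. Of 11 other inhibitor genes of ERK signalling, 1 was called higher and 1 lower.

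ETV4, the gene with the largest fall over all cells, had 50.3 and 57.7 CPM in hESC and 47.9 and 64.9 CPM in these blastoid cells. The groups overlapped, and the difference was small beside its error (log2 0.07 ± 0.18, edgeR adjusted p 0.807). FGF2 had 124 and 106 CPM against 69.6 and 100.3 CPM, groups that did not overlap but were not called (log2 -0.43 ± 0.18, edgeR adjusted p 0.111). SPRY1 (log2 -0.49 ± 0.25, edgeR adjusted p 0.165), SPRY4 (log2 -0.59 ± 0.26, edgeR adjusted p 0.116) and SPRY2 (log2 0.34 ± 0.20, edgeR adjusted p 0.249) were not called either. SPRY1 and SPRY4 were split between the blastoid samples, at 55.4 and 25.7 CPM and at 38.2 and 19.3 CPM.

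**Figure D3:**
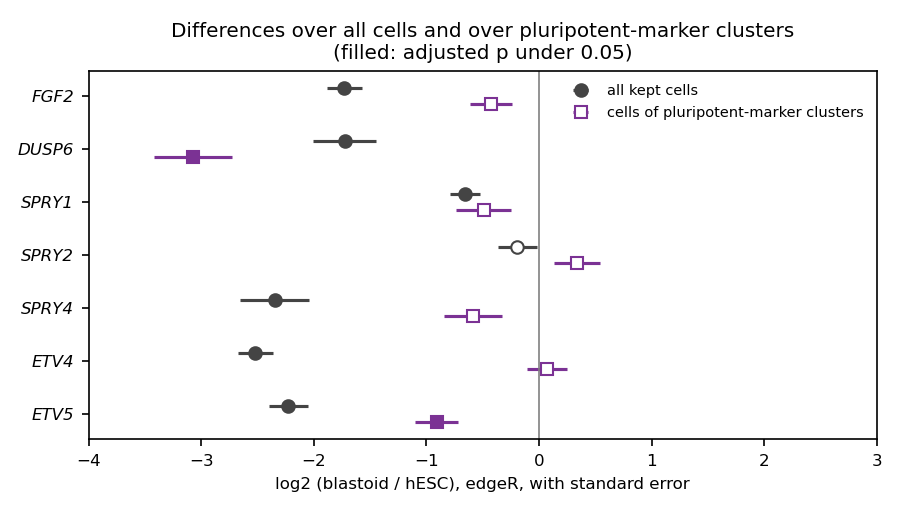
Log2 (blastoid / hESC) of the 7 genes with standard errors (x axis), over all kept cells (circles) and over cells of the clusters with pluripotency markers (squares); filled symbols passed an adjusted p of 0.05. The fall of DUSP6 is -1.73 over all cells and -3.07 in the pluripotent-marker clusters, while that of ETV4 is -2.52 over all cells and 0.07 in those clusters.

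Which blastoid cells were taken changed some calls but not that of DUSP6. At a clustering resolution of 1.0 the NODAL-led cells separated from a MESP1-led cluster of 49 and 14 cells, and formed a cluster of 55 and 88 cells that kept the pluripotent-like name. DUSP6 was at 3.64 and 5.18 CPM in that cluster, from 2 and 6 UMIs, beside ETV4 at 65.5 and 77.7 CPM and FGF2 at 91.0 and 122 CPM. In the MESP1-led cells of blastoid 3, DUSP6 was at 53.7 CPM, SPRY4 at 74.7, SPRY1 at 98.0 and ETV4 at 51.3 CPM. With the NODAL-led cells of this finer clustering alone, DUSP6 fell by 4.87 on the log2 scale, SPRY1 (log2 -1.15, edgeR adjusted p 0.00569) and SPRY4 (log2 -1.24, edgeR adjusted p 0.00819) were called lower, and ETV5 was not (log2 -0.58, edgeR adjusted p 0.063).

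**Figure D4:**
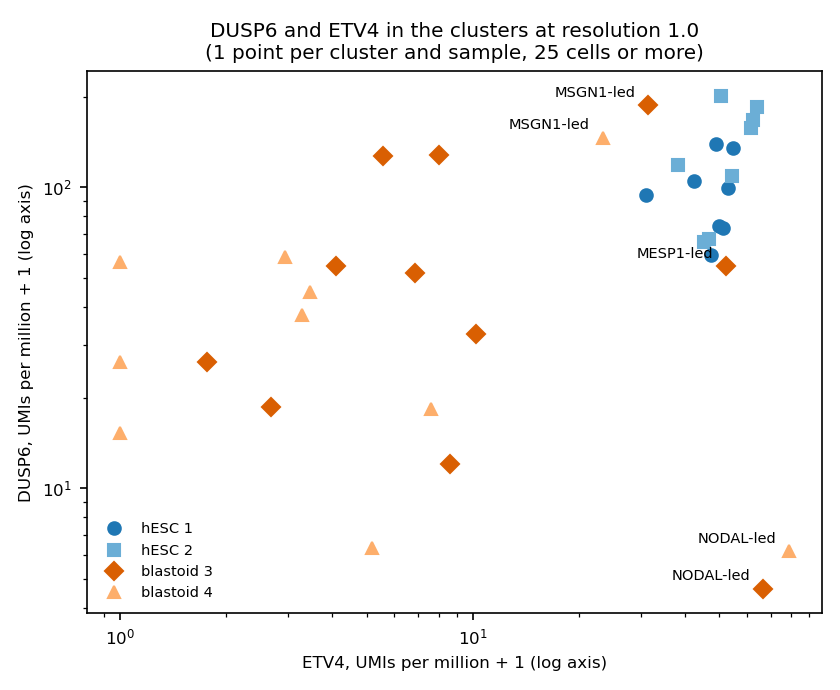
DUSP6 against ETV4 in the clusters at resolution 1.0 (both axes: CPM plus 1, log scale; each point is 1 cluster in 1 sample with 25 cells or more). The NODAL-led blastoid cells have ETV4 at 65.5 and 77.7 CPM with DUSP6 at 3.64 and 5.18 CPM, whereas in the hESC clusters both genes are high.

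The 7 genes also varied within the hESC samples. Among the 6 hESC clusters of usual depth at resolution 1.0, DUSP6 was lowest in the cluster led by metallothionein MT1X, BNIP3 and IGFBP2 (58.7 CPM in hESC 1 and 66.5 in hESC 2), against 72.2 to 138 CPM and 108 to 200 CPM in the other 5. BNIP3 and PGK1, also a leading gene there, are known to rise in low oxygen. SPRY4 was lowest in the same cluster, at 20.6 and 24.2 CPM. FGF2 went the other way, at 146 and 137 CPM in the MT1X-led cluster. It was at 183 and 146 CPM in the cluster led by GDF15, CDKN1A and MDM2, which are targets of p53. The other 4 had 88.6 to 117 CPM and 78.3 to 107 CPM. In both samples the FGF2 interval of the MT1X-led cluster overlapped that of the highest of these 4. The SPRY4 interval of the MT1X-led cluster overlapped that of the GDF15-led cluster in both samples, so its lowest place was not separated. The DUSP6 interval of the MT1X-led cluster overlapped those of other clusters in hESC 1, the GDF15-led cluster among them. In hESC 2 it lay below those of the other 5. ETV4 varied less, from 41.5 to 53.9 CPM in hESC 1 and from 45.8 to 63.2 CPM in hESC 2. DUSP6 was higher in hESC 2 than in hESC 1 in 6 of these 6 clusters.

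Across 8 profiles (each class in each sample, with the hESC samples as 1 class), the genes fell into patterns that share libraries and depth, so the correlations are descriptions. FGF2 was most like ETV5 (Pearson r 0.987) and SPRY4 (0.936), and SPRY4 was like ETV5 (0.947). DUSP6 had r of 0.455 with FGF2 and 0.182 with ETV4, and r of -0.602 with SPRY2. Among 4475 other genes of sufficient level, the most alike were TCP1 (0.994) and RNF130 (0.992) for FGF2, GABPB1-AS1 (0.980) and IVNS1ABP (0.979) for DUSP6, CCDC43 (0.981) and CWC22 (0.949) for SPRY1, CCNE1 (0.963) and LITAF (0.961) for SPRY2, PSMD12 (0.993) and PTPRZ1 (0.992) for SPRY4, ZNF770 (0.986) for ETV4, and PTMA (0.993) and RNF130 (0.991) for ETV5.

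The other genes of the pathway, 89 genes in 7 lists, changed in both directions over all kept cells. Of the 79 tested, 30 were called higher and 21 lower, with a median log2 difference of 0.27. Over all genes tested 27.1% were called higher and 22.8% lower, with a median of 0.052, so calls in both directions were common in any case. The counts of each list below stand beside the same shares. Of 10 FGF ligand genes tested, 6 were higher and 3 lower. FGF9 (83 and 98 UMIs), FGF3 (39 and 16) and FGF10 (31 and 13) were listed in neither hESC table and were called higher, and FGF7, a ligand that mesenchyme makes for epithelia, had 0, 4, 124 and 51 UMIs (log2 5.11 ± 0.84, edgeR adjusted p 0.00223). FGF20 (11 and 17 UMIs in hESC, listed in neither blastoid table) and FGF21 (36 and 16 UMIs in hESC, 0 and 1 in the blastoid samples) were called lower. In the clusters with pluripotency markers, FGF4 rose from 0.559 and 0.577 to 23.9 and 19.3 TMM-scaled CPM (log2 5.20 ± 0.36, edgeR adjusted p 2.25e-06), while FGF2 was not called there.

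Of 15 FGF receptor and co-receptor genes tested, 8 were higher and 4 lower. FGFR1, the receptor with the highest level in hESC, had 190 and 198 CPM against 110 and 103 CPM (log2 -0.87 ± 0.12, edgeR adjusted p 0.00115). FGFR2 rose from 34.4 and 30.2 to 100.4 and 87.9 CPM (log2 1.55 ± 0.14, edgeR adjusted p 0.000178). By class, FGFR2 was at 133 and 118 CPM in mesoderm/mesenchyme-like cells and at 24.6 and 31.0 CPM in the NODAL-led cluster. The mesoderm-like clusters differed, with 19.05 and 18.63 CPM in the MSGN1-led cluster and 90.2 to 241.5 CPM in the others. FGFBP3, whose product carries FGFs, fell by 5.00 on the log2 scale, from 71.2 and 80.5 to 1.95 and 2.75 CPM (edgeR adjusted p 7.8e-06). FGFBP1, another carrier, had 143 and 188 UMIs in the blastoid samples, was listed in neither hESC table and was called higher.

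Of 12 other receptor tyrosine kinase genes, 5 were higher and 4 lower, and of 19 genes of the cascade from RAS to ERK, 7 were higher and 3 lower. MAPK3, which encodes the kinase ERK1, was among the cascade genes called higher (log2 0.88 ± 0.19, edgeR adjusted p 0.00764), and MAP2K1, which encodes the kinase MEK1 that acts on ERK, among those called lower (log2 -0.67 ± 0.13, edgeR adjusted p 0.00462).

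Of 11 other inhibitors of ERK signalling, 8 were not called, 2 were lower and 1 was higher. IL17RD, also named SEF, an inhibitor of FGF signalling, fell from 48.0 and 55.0 to 14.3 and 8.32 CPM (log2 -2.19 ± 0.25, edgeR adjusted p 0.000428). DUSP5, a phosphatase of nuclear ERK, rose from 13.0 and 15.0 to 18.6 and 28.6 CPM (log2 0.76 ± 0.23, edgeR adjusted p 0.0268). By class it was at 67.3 and 63.9 CPM in trophectoderm/amnion-like cells, where DUSP6 was at 22.3 and 8.92 CPM.

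Of 10 other ERK target genes, 3 were higher and 4 lower. ETV1, the third PEA3-group gene, also fell, from 53.9 and 52.1 to 15.5 and 8.54 CPM (log2 -2.14 ± 0.26, edgeR adjusted p 0.000555), and stood at 50.9 and 34.2 CPM in the NODAL-led cluster. FOSL1 fell by 3.06 on the log2 scale (edgeR adjusted p 4.8e-05). The immediate-early genes FOS (log2 5.06 ± 0.20, edgeR adjusted p 7.69e-06) and EGR1 (from 16.4 and 18.5 to 149.4 and 149.5 CPM, edgeR adjusted p 1.06e-05) rose. Both are known to be induced by cell dissociation as well as by ERK, and the part of dissociation was not tested. SPRY4-AS1, a transcript next to SPRY4 on the opposite strand that does not overlap it in the annotation, had 19, 29, 7 and 2 UMIs and was called lower with SPRY4 (log2 -2.66 ± 0.56, edgeR adjusted p 0.00675).

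**Figure D5:**
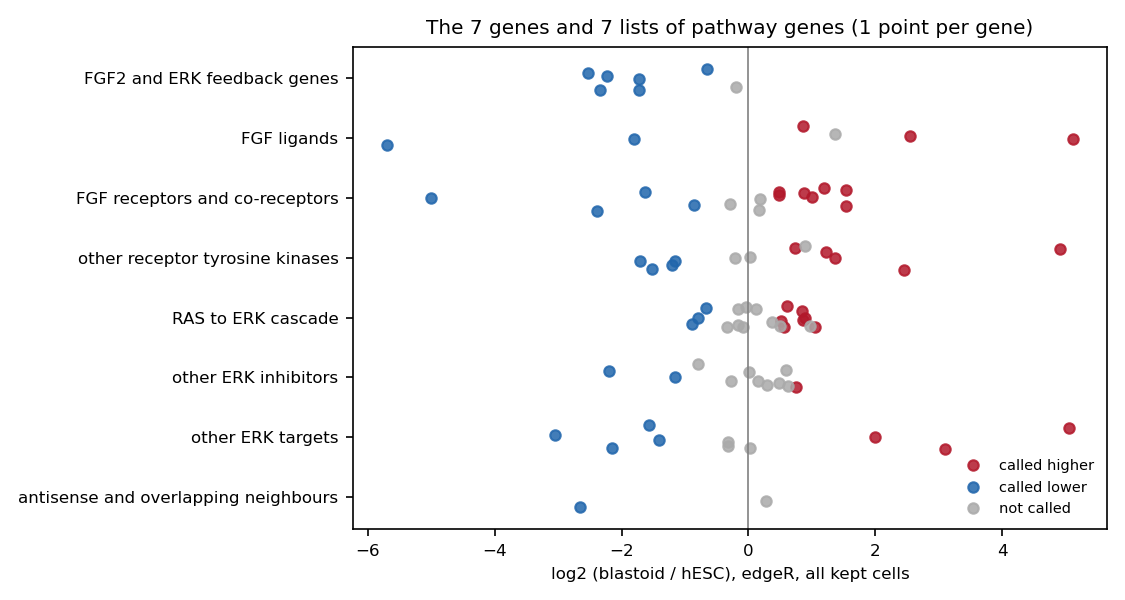
Log2 (blastoid / hESC) over all kept cells (x axis) for the 7 genes and for each of the 7 lists of pathway genes (rows); 81 genes are drawn, and the 5 with no UMI in 1 of the groups are left out. The 7 genes lie between -2.52 and -0.19, whereas every list of more than 2 genes spreads to both sides of 0. Genes and lists were chosen with earlier results of these data known, so the contrast is a description.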

How the data were processed

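Single-cell libraries (10x Genomics Chromium 3′ v3.1, per the labels) of 4 samples were analysed. The deposited values are unnormalized UMI counts of genes (named by symbol) in cell barcodes, in a separate table for each sample. Cell Ranger and GRCh38 are named in the submitters' processing notes; versions, annotation and strand setting are not given in the sources used here. Genes without a row in a table were counted as 0 there. Barcodes with at least 500 genes and at most 20% mitochondrial UMIs were tested for doublets with Scrublet (scanpy 1.11.5, expected rate 6%). Kept cells were clustered on 2000 variable genes and 30 components (Leiden, resolution 0.5) and named from 79 marker genes.

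UMIs were summed per sample and tested in R 4.3.3 with edgeR 4.0.16 (filterByExpr, TMM, quasi-likelihood, Benjamini-Hochberg over all genes tested); DESeq2 1.42.0 was an alternative. In simulated data of the same depth, for the comparison over all cells (16130 genes), 92 of 100 genes changed by a log2 of 1 and 99 of 100 changed by 2 were recovered, with 9 false calls. For the pluripotent-marker clusters (14230 genes) the counts were 83 and 100 of 100, with 3 false calls. The simulated spread between samples was a fixed setting that was not fitted to these data, and only genes of sufficient expected count were changed. These counts therefore do not give the recovery or the false calls in the data themselves. Intervals are exact at 95% and cover counting error only. Sequences and coordinates come from RefSeq tables of GRCh38.p14. The comparison of pluripotent-like cells was made by cluster, because the blastoid cluster did not keep that name. In the lists, the 5 largest called rises and falls are named, with genes needed to read a member, and for each member the 2 genes nearest to it by Pearson correlation of log2 (CPM + 1); 1 of these is not reported here. The members and lists were chosen with earlier results of these data known.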

Additional observations from a re-analysis of the deposited data

How the results depend on the processing

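Over all kept cells 6 of the 7 genes were called in each alternative that kept all 4 samples. In these alternatives 37.7% to 51.2% of all genes tested were called, and in the main fit 8157 of 16332 (49.9%). The pathway counts of 30 higher and 21 lower stayed within 1.5 times. With 1 sample left out, the log2 difference of each of the 6 genes stayed below 0. The call of SPRY1 was lost without hESC 1 or without hESC 2, as given above. SPRY2, not called, ranged from -0.37 (without hESC 1) to 0.012 (without hESC 2) in these fits and changed sign in the second. Library size alone moved the median of all genes by 0.129 and changed the split of all calls from 4429 higher and 3728 lower to 5129 and 2998; 6 of the 7 genes were called lower under it too. In the pluripotent-marker clusters edgeR called 3572 of 14145 genes (25.3%), and 2372 of 13503 (17.6%) with marker-defined cells. DESeq2 called 2298 of 14145 (16.2%). In the main fit there 2 of the 7 genes were called. With the members and lists kept in the clustering 4 were called, beside 21.2% of 14023 genes. With no filter on low counts 5 were called, beside 21.5% of 20784 genes, and SPRY1 (-0.54), SPRY4 (-0.64) and FGF2 (-0.47) passed. Leaving out 1 blastoid sample there changed which of the 7 genes were called. In 13 alternatives, 3 of them chosen after seeing the data, DUSP6 was called in 13 (log2 -4.90 to -2.44) and ETV5 in 11, all but the marker-defined cells (-0.71, adjusted p 0.0605) and the finer NODAL-led cluster. ETV4, not called in any of the 13, ranged from -0.20 to 0.46; with 1 sample left out it ranged from -0.20 (without blastoid 4) to 0.27 (without blastoid 3), and was also below 0 without hESC 1 (-0.05). The causes were not tested. Thinning to 4000 UMIs, or none, kept 6 genes lower in share. Class levels under 2 other clusterings moved beyond their counting interval in 3 of 56 cases. No paired analysis was possible because the groups share no replicate numbers. Depth limits the small clusters: 12 DUSP6 UMIs in blastoid 4.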
